A study of Mus musculus with 4 samples.

Results

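The 10 genes of the immediate-early response examined, Fos, Fosb, Jun, Junb, Egr1, Atf3, Ier2, Dusp1, Nr4a1 and Zfp36, were measured in mouse stomach tissue. They were chosen by name, with earlier results of these data known. Each was represented by 1 probe set with 1 gene symbol, and together they made up 10 of the 22180 genes compared. The tissue came from FVB mice aged 1 year, 2 samples labelled Hdc-/- and 2 labelled Hdc+/+, and each sample's total RNA was measured on 1 Affymetrix array. The product of Hdc, histidine decarboxylase, makes histamine from histidine, and the comparison asks how stomach gene expression differs where the gene is deleted. Every value is a log2 RMA value as deposited, and every difference is Hdc-/- minus Hdc+/+. The titles call the samples of a genotype biological replicates, but whether each came from its own animal is not stated. Whether a p-value reflects the spread between animals is therefore unknown. The labels give neither the sex of the mice nor how the Hdc allele was made.

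Immediate-early genes are transcribed soon after a cell receives a growth factor, hormone, cytokine or stress signal, without the need for new protein. MAP kinases and cyclic AMP signals act on factors already present at their promoters, among them serum response factor at CArG boxes and CREB at cyclic AMP response elements. Their products are mostly transcription factors, while others end the response by dephosphorylating the kinases or by degrading short-lived mRNAs. In the stomach they are known to respond to growth factors and mucosal injury, and in any tissue to handling, and the labels state that the tissue was washed and cut into small pieces before RNA extraction.

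The promoters of Fos, Dusp1 and Zfp36 are shown because these 3 members had the largest genotype differences. Each sequence is the 250 bases before the gene's start, from RefSeq on build GRCm38.p6, and capitals mark matches to the motifs searched on both strands.
Fos, GRCm38.p6 chr12:85473640-85473889, plus strand: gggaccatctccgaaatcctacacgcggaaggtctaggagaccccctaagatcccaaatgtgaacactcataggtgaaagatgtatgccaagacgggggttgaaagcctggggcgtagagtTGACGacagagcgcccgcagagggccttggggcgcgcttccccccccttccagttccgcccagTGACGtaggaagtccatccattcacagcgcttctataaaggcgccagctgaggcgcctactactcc
Dusp1, GRCm38.p6 chr17:26508473-26508722, minus strand: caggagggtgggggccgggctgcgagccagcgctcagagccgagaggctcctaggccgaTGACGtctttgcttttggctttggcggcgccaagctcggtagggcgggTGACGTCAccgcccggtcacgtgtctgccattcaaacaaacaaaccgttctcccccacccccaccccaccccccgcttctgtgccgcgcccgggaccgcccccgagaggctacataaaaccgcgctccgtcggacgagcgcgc
Zfp36, GRCm38.p6 chr7:28379229-28379478, minus strand: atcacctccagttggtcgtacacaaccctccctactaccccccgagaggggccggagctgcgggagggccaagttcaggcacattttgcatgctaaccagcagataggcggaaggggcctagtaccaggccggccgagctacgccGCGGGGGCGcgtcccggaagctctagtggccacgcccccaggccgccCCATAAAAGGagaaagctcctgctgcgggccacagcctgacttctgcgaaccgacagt
The capitals in the Fos promoter are 2 copies of TGACG, the core of the cyclic AMP response element. In the Dusp1 promoter they are a TGACG core and the full palindromic element TGACGTCA, which itself holds a core on each strand. In the Zfp36 promoter they are an EGR site, GCGNGGGCG, and nearer the start a CArG box. Fos and Dusp1 thus shared the core TGACG, and no motif searched was present in all 3 windows. Promoters were found for 8 of the 10 members, the exceptions being Egr1 and Ier2. TGACG was present in 6 of these 8 windows (Fos, Fosb, Junb, Atf3, Dusp1 and Nr4a1) and in 17.7% of all 32817 promoter windows of the same length. TGACGTCA was present in 1 (Dusp1), against 1.55% of all windows, GCGNGGGCG in 3 (Fosb, Nr4a1 and Zfp36), against 4.7%, the CArG box in 1 (Zfp36), against 1.47%, and the AP-1 site TGANTCA in 0, against 6.75%. These matches describe the letters in the window and were not tested as binding sites. Bases further than 250 from the start were not searched. A window without a match, such as that of Fos for the CArG box, therefore does not show that the gene lacks the site.

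No member passed the test across all genes, and 3 of the 10 had an unadjusted p under 0.05, all of them lower on the Hdc-/- arrays. The test was limma with Benjamini-Hochberg adjustment over the 22180 genes at 0.05, and it called 0 members, against 0.00451% of all genes higher and 0% lower. Its SEs, intervals and p-values combine a gene's own spread between the arrays of a genotype with a variance estimated over all genes. The 3 members were Fos, Dusp1 and Zfp36, and the background at the unadjusted threshold was 4.87% of genes in the lower direction. In the higher direction 0 members met that threshold, against 3.68% of genes. With 2 arrays a genotype, the smallest p of an exact permutation test (two-sided) for a single gene is 0.333. Of the 10 members, 8 had a difference below 0, as did 45.9% of all genes. The median difference over the members was -0.22, and over all genes it was 0.02. The 2 genotypes did not overlap in the lower direction for 4 members, Fos, Fosb, Dusp1 and Zfp36, against 17.6% of genes, and in the higher direction for 1 member, Ier2, against 21.5% of genes.

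**Figure D1:**
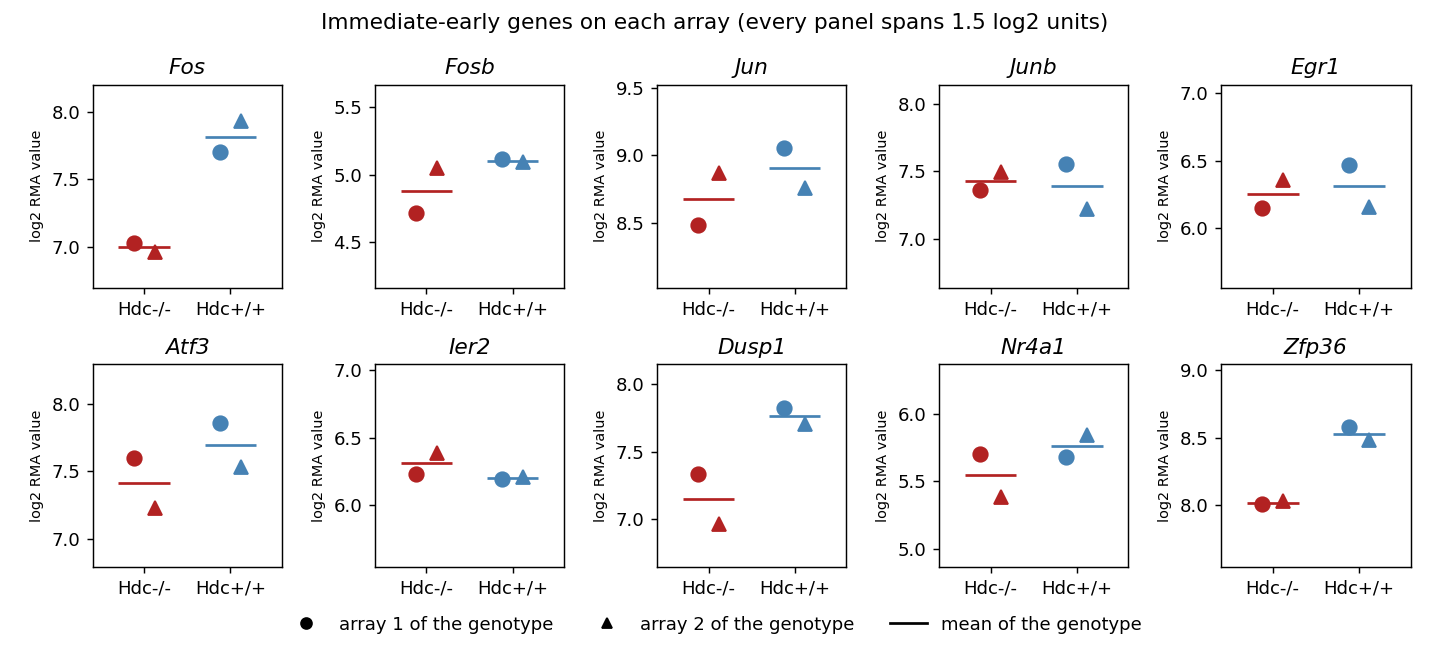
Log2 RMA value (vertical axis) of each of the 10 genes on the Hdc-/- arrays (red, left) and the Hdc+/+ arrays (blue, right), with the mean of each genotype as a bar. Fos, Dusp1 and Zfp36 are the panels with a clear gap between the genotypes, of 0.67, 0.37 and 0.45, and every panel spans the same 1.5 log2 units.

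Among the AP-1 subunits, Fos showed the largest difference of all members. Fos encodes the c-Fos protein, which binds DNA as a dimer with a Jun protein. It read 7.02 and 6.96 on the Hdc-/- arrays 1 and 2, against 7.70 and 7.93 on the Hdc+/+ arrays 1 and 2. The arrays of a genotype lay close together, 0.06 apart in Hdc-/- and 0.23 apart in Hdc+/+, and a gap of 0.67 separated the genotypes. Hdc-/- minus Hdc+/+ came to -0.82 log2 units (SE 0.17, unadjusted 95% interval -1.25 to -0.39, n = 2 arrays per genotype), or 0.566-fold. Its limma unadjusted p was 0.00359 and its adjusted p was 0.342, at rank 233 of the 22180 genes by p. The exact permutation p was 0.333, the smallest possible here. The Fos difference was between -0.94 and -0.70 with any 1 array left out.

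Fosb, a close relative of Fos that also pairs with Jun proteins, read 4.71 and 5.05 on the Hdc-/- arrays, against 5.11 and 5.09 on the Hdc+/+ arrays. Both Hdc-/- arrays lay below both Hdc+/+ arrays, but array 2 of Hdc-/- did so by only 0.04. The difference was -0.22 (SE 0.18, limma adjusted p = 0.795), which is less than the 0.33 between the Hdc-/- arrays. It was -0.05 without array 1 of Hdc-/- and -0.39 without array 2 of Hdc-/-.

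Jun encodes c-Jun, the usual partner of Fos. It read 8.48 and 8.87 on the Hdc-/- arrays, against 9.06 and 8.76 on the Hdc+/+ arrays, and the genotypes overlapped. Its difference of -0.23 (SE 0.21, limma adjusted p = 0.823) was smaller than the gap between the arrays of either genotype, 0.39 in Hdc-/- and 0.30 in Hdc+/+. The Jun difference was -0.04 without array 1 of Hdc-/- and -0.42 without array 2 of Hdc-/-. Junb, whose product is a weaker activator than c-Jun and can oppose it, read 7.36 and 7.49 on the Hdc-/- arrays and 7.56 and 7.22 on the Hdc+/+ arrays. The Hdc+/+ arrays held both the highest and the lowest Junb value, and the difference was 0.04 (SE 0.19, 95% interval -0.43 to 0.51, limma adjusted p = 0.982). Without array 2 of Hdc+/+ it was -0.13, and without array 1 of Hdc+/+ it was 0.20. Atf3, a stress-induced factor of the same leucine zipper class that often represses its targets, read 7.60 and 7.22 on the Hdc-/- arrays, against 7.86 and 7.53 on the Hdc+/+ arrays. These ranges overlapped because array 1 of Hdc-/- lay above array 2 of Hdc+/+, and the difference was -0.28 (SE 0.21, limma adjusted p = 0.770). It was -0.47 without array 1 of Hdc-/- and -0.10 without array 2 of Hdc-/-.

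The other transcription factors of the set overlapped between genotypes. Egr1 encodes a zinc finger factor that binds GC-rich sites such as the EGR site above. It read 6.15 and 6.36 on the Hdc-/- arrays, against 6.47 and 6.16 on the Hdc+/+ arrays. The values interleaved, and the difference was -0.06 (SE 0.19, 95% interval -0.54 to 0.42, limma adjusted p = 0.969). Leaving out array 1 of Hdc+/+ turned its direction, to 0.10, as did leaving out array 1 of Hdc-/-, to 0.04. Nr4a1, the gene of the orphan nuclear receptor Nur77, read 5.70 and 5.38 on the Hdc-/- arrays, against 5.68 and 5.84 on the Hdc+/+ arrays. Array 2 of Hdc-/- stood below the other 3, and the difference was -0.22 (SE 0.19, limma adjusted p = 0.807). Without array 2 of Hdc-/- it was -0.06, and without array 1 of Hdc-/- it was -0.38.

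Ier2 was the member furthest in the higher direction, by a small amount. It encodes a short-lived nuclear protein induced by serum. Ier2 read 6.24 and 6.39 on the Hdc-/- arrays, against 6.20 and 6.21 on the Hdc+/+ arrays. Both Hdc-/- arrays were higher, with a gap of 0.03 between the genotypes. The difference of 0.11 (SE 0.16, 95% interval -0.30 to 0.51, limma adjusted p = 0.903) was smaller than the 0.15 between the Hdc-/- arrays. It was 0.18 without array 1 of Hdc-/- and 0.03 without array 2 of Hdc-/-.

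Both members that end the response read lower on the Hdc-/- arrays at the unadjusted threshold, without passing over all genes. Dusp1 encodes a phosphatase that inactivates MAP kinases in the nucleus. It read 7.33 and 6.97 on the Hdc-/- arrays, against 7.82 and 7.70 on the Hdc+/+ arrays. Both Hdc-/- arrays lay below both Hdc+/+ arrays, with a gap of 0.37. The difference was -0.61 (SE 0.19, 95% interval -1.09 to -0.13), or 0.654-fold, with a limma unadjusted p of 0.0213 and an adjusted p of 0.491. It was -0.80 without array 1 of Hdc-/- and -0.43 without array 2 of Hdc-/-.

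Zfp36 encodes tristetraprolin, which binds AU-rich elements and speeds the decay of cytokine and immediate-early mRNAs, Fos mRNA among them. It read 8.01 and 8.03 on the Hdc-/- arrays, against 8.58 and 8.48 on the Hdc+/+ arrays. The arrays of a genotype were 0.02 and 0.10 apart in Hdc-/- and Hdc+/+, and the genotypes were separated by 0.45. The difference was -0.51 (SE 0.16, 95% interval -0.90 to -0.12), or 0.702-fold, with a limma unadjusted p of 0.0197 and an adjusted p of 0.487. It stayed between -0.56 and -0.46 with any 1 array left out. Of the 3 members under the unadjusted threshold, Fos alone was under it in all 4 fits that left out an array. In those fits Dusp1 was under it only when the array was array 1 of Hdc-/-, and Zfp36 only when it was array 2 of Hdc-/-, so the count of 3 became 1 without either Hdc+/+ array and 2 without either Hdc-/- array.

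**Figure D2:**
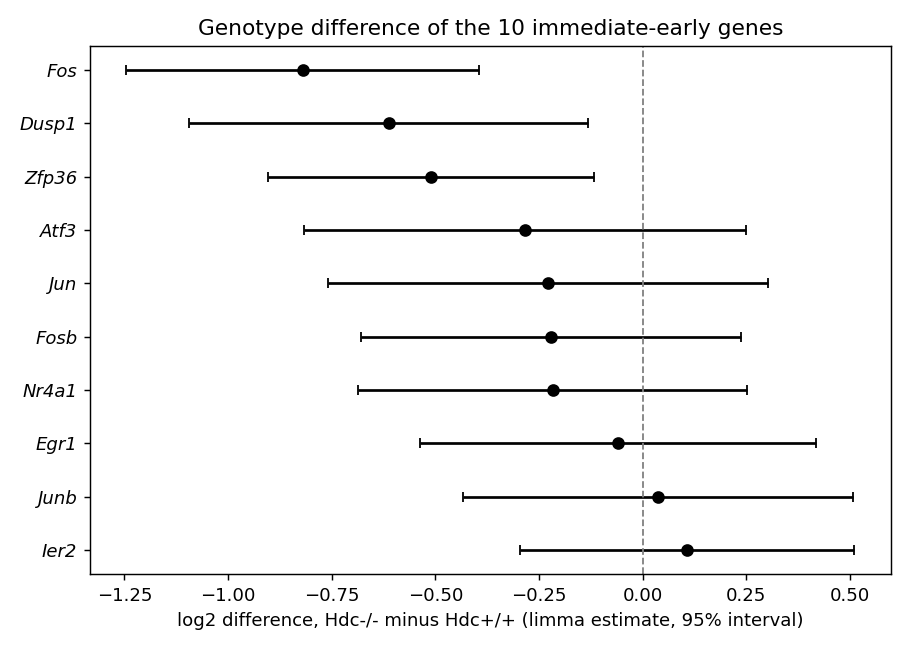
Log2 difference of each gene, Hdc-/- minus Hdc+/+ (horizontal axis), as the limma estimate (point) with its unadjusted 95% interval (line). The intervals of Fos, Dusp1 and Zfp36 lie below 0, and those of the other 7 genes include it.

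Around each gene's own mean, the members did not follow a single array pattern. Fos, Dusp1 and Zfp36 were low on both Hdc-/- arrays and high on both Hdc+/+ arrays. The values were -0.38 and -0.44 against 0.29 and 0.53 for Fos, and -0.12 and -0.49 against 0.37 and 0.25 for Dusp1. For Zfp36 they were -0.27 and -0.24 against 0.30 and 0.21. Jun, Junb and Egr1 instead read above their means on array 2 of Hdc-/- and array 1 of Hdc+/+, and below them on the other 2 arrays. Atf3 was above its mean on array 1 of each genotype. The largest number of members, 7, had their highest value on array 1 of Hdc+/+, which was also the lowest array for 1 member, Ier2. Their lowest value fell on array 1 of Hdc-/- for 4 members and on array 2 of Hdc-/- for another 4. The mean of the 10 centred values was -0.15 and -0.13 on the Hdc-/- arrays, against 0.20 and 0.09 on the Hdc+/+ arrays. Setting each Hdc-/- array against each Hdc+/+ array, between 6 and 9 of the 10 members were lower in Hdc-/-, and the median difference ran from -0.36 to -0.18, while the median over all genes ran from -0.01 to 0.05 in the same 4 pairs.

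**Figure D3:**
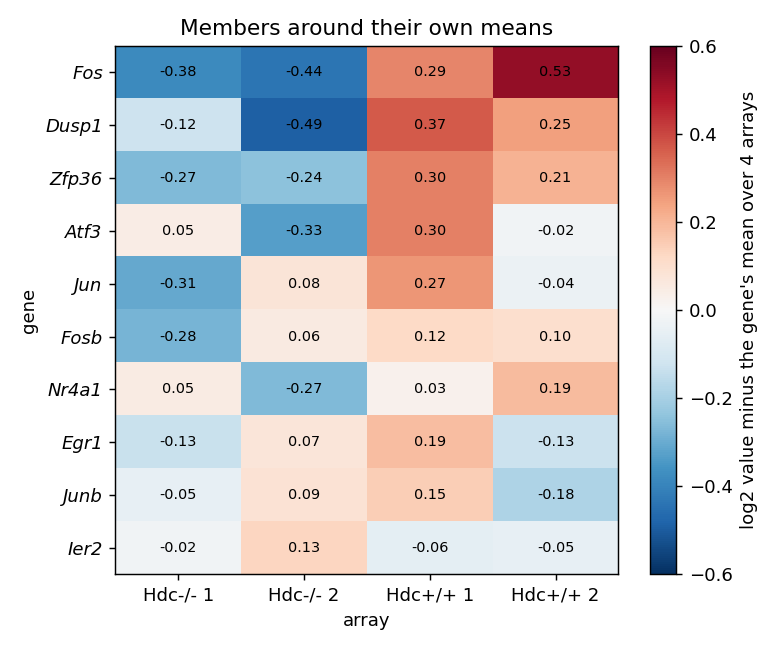
Heat map of each gene's log2 value minus its own mean over the 4 arrays, with the Hdc-/- arrays in the left columns and the genes ordered by their genotype difference. The rows of Fos, Dusp1 and Zfp36 change colour between genotypes, and the rows of Jun, Egr1 and Junb change colour within each genotype.

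The members were then set beside related genes of the same response. Across 6 lists of related genes, 105 different genes were measured. The limma test over all genes called 0 of them, with 8 higher and 5 lower at the unadjusted threshold. That threshold was met by 3.68% of all genes higher and 4.87% lower, the background for each list below. The median difference over the 105 genes was 0.01. Of 11 other AP-1 and ATF genes, 0 met the unadjusted threshold in either direction, and the median was 0.00. Fosl2, which encodes another Fos family protein, differed by 0.26 (SE 0.17), and Jund, the remaining Jun family gene, by -0.05 (SE 0.18). Fosl2 and Jund were chosen for naming after their values were seen, and Fosl1, also of the Fos family, had no value among the genes compared. Of 15 further MAP kinase phosphatase and feedback genes, 0 met the unadjusted threshold, with a median of -0.02. Of 16 kinases and factors that act upstream, 0 did, with a median of -0.12.

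The list of 41 other immediate-early genes had 4 higher and 4 lower at the unadjusted threshold and a median of 0.02. On the higher side, Myc, the growth-promoting transcription factor gene, read 6.50 and 6.32 on the Hdc-/- arrays, against 5.56 and 5.72 on the Hdc+/+ arrays, a difference of 0.77 (SE 0.17, limma adjusted p = 0.371). Both Hdc-/- arrays exceeded both Hdc+/+ arrays, the direction opposite to that of Fos. Bhlhe40, a transcriptional repressor gene, differed by 0.73 (SE 0.28, limma adjusted p = 0.571). Its Hdc-/- arrays lay far apart, at 8.77 and 7.98, against 7.67 and 7.62 on the Hdc+/+ arrays. On the lower side, the stress-responsive kinase gene Plk3 differed by -0.77 (SE 0.23, limma adjusted p = 0.474), and Rhob, a small GTPase gene, by -0.60 (SE 0.17, limma adjusted p = 0.451). Among 9 ligands and receptors of the EGF family, which signal to the immediate-early promoters through MAP kinases, 1 was higher and 0 lower at the unadjusted threshold. It was Erbb4, a neuregulin receptor gene, at 0.94 (SE 0.16, limma adjusted p = 0.279). Erbb4 was dim, at 3.42 and 3.55 on the Hdc-/- arrays and 2.54 and 2.55 on the Hdc+/+ arrays, all below the array medians.

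Of 13 heat shock and stress genes, a class that stress signals also induce, 3 were higher and 1 lower at the unadjusted threshold, with 0 called over all genes and a median of 0.21. The Hsp70 genes Hspa1b and Hspa1a differed by 1.26 (SE 0.19, limma adjusted p = 0.256) and 1.22 (SE 0.20, limma adjusted p = 0.279). They are near-identical copies, so their signals may not be separate. Hspe1, the gene of the mitochondrial chaperonin Hsp10, differed by -1.22 (SE 0.21, limma adjusted p = 0.279). It read 3.96 and 4.36 on the Hdc-/- arrays, below the array medians, against 5.25 and 5.50 on the Hdc+/+ arrays. Hspd1, also a chaperonin gene of the list and named after its value was seen, differed by 0.09 (SE 0.33), with overlapping genotypes. Of the 13 genes, 7 did not overlap between genotypes in the higher direction, against 21.5% of all genes. In the lower direction 3 did not overlap, against 17.6%. Hspa1b and Hspa1a were among the former, and Hspe1, in the direction of Fos, was among the latter. Whether these differences and that of Fos shared a cause was not tested.

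**Figure D4:**
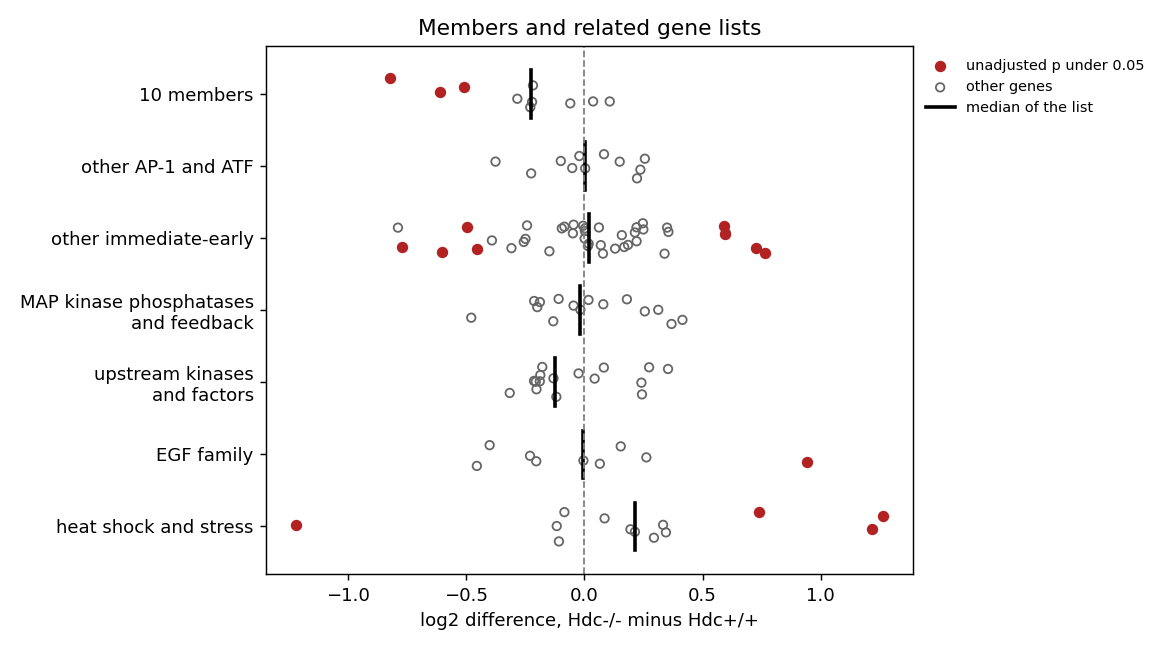
Log2 difference, Hdc-/- minus Hdc+/+ (horizontal axis), of the 10 members and of 6 related gene lists (rows), with each gene as a point, filled where its unadjusted p was under 0.05, and the list median as a bar. The members' median is at -0.22, and the medians of the other lists lie between -0.12 and 0.21.

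By distance from the members' mean centred profile over the 4 arrays, the closest of 1711 named genes with a range of at least 1 were AA623943, Fam83c, Dnase1l2, Rhof and Sh3bgr. Their root mean square distances were between 0.243 and 0.250 log2 units. The required range exceeds that of the members' mean profile, so no candidate could lie very near it. The 5 genes differed by -0.69 to -0.56 between genotypes, with limma adjusted p between 0.483 and 0.602. With 4 arrays such a likeness is a description of the profile's shape only.

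In the whole series, limma called 1 of the 22180 genes, against 161 without array 1 of Hdc+/+ and 0 without any other single array. The array medians over these genes ran from 4.56 to 4.60. Stomach markers were strong on all 4 arrays, with Gkn2, a surface mucous cell gene, between 13.23 and 13.35 and the proton pump gene Atp4b between 10.96 and 11.49. Hdc itself read 3.77 and 4.06 on the Hdc-/- arrays, against 3.99 and 3.82 on the Hdc+/+ arrays (difference 0.01, SE 0.19, limma adjusted p = 0.997). These values all lay below the array medians, so Hdc read dim in both genotypes. The position of its probes relative to the deletion is unknown here. Hdc therefore gave no check of the genotype labels, on which all directions depend.

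Hepatocyte, squamous and adipocyte markers read lower on the Hdc-/- arrays, as Fos, Dusp1 and Zfp36 did. Pancreatic acinar markers were instead high on array 2 of Hdc+/+ alone. Of all genes, 4.87% were lower and 3.68% higher at the unadjusted threshold. All 10 hepatocyte markers were lower on the Hdc-/- arrays at the unadjusted threshold, and their summed unlogged level was 553 and 784 on the Hdc-/- arrays, against 4515 and 13366 on the Hdc+/+ arrays. For 7 pancreatic acinar markers, 0 met that threshold and the sums were 214 and 235 in Hdc-/-, against 203 and 5668 in Hdc+/+, and for 10 intestinal markers, 3 were lower and the sums were 520 and 465, against 1444 and 5737. For 8 squamous markers, 5 were lower and the sums were 122 and 137 in Hdc-/-, against 241 and 320 in Hdc+/+, and for 7 adipocyte markers, 4 were lower and the sums were 718 and 935, against 1597 and 2126. Of 7 smooth muscle markers 1 was lower, with sums of 3085 and 3092 in Hdc-/- and 3591 and 3856 in Hdc+/+, and of 7 endothelial markers 2 were lower, with sums of 195 and 171, against 211 and 254. Of 6 fibroblast markers 2 were lower, but only 3 had a difference below 0, and the list median was -0.02. Their sums were 997 and 1113 in Hdc-/- and 1569 on both Hdc+/+ arrays. Of 7 macrophage markers 4 were higher, with sums of 412 and 392 in Hdc-/-, against 286 and 369 in Hdc+/+. Of 7 neutrophil markers 2 were higher, but 5 had a difference below 0, and the list median was -0.12. Their sums were 142 and 145 in Hdc-/-, against 110 and 101 in Hdc+/+. Of 6 lymphocyte markers 2 were higher and 3 had a difference below 0, with a median of 0.16. Their sums were 188 and 195 in Hdc-/-, against 116 and 181 in Hdc+/+. Of 5 enteric neuron markers 1 was higher, with sums of 147 and 155 in Hdc-/-, against 117 and 112 in Hdc+/+. In the gastric lists, 3 of 5 chief cell markers were higher, with sums of 8693 and 9225 in Hdc-/-, against 6929 and 4410 in Hdc+/+, as were 4 of 8 parietal markers, with sums of 6946 and 7295, against 7063 and 4997, and 0 of 5 pit cell markers met the threshold. Cblif, the gene of gastric intrinsic factor, stood in both the chief and the parietal list and was counted in each. No marker was listed at 0, the lowest value of any probe set being 0.384. Without array 2 of Hdc+/+, where the liver, pancreas and intestine markers were highest, Fos differed by -0.70, Dusp1 by -0.67 and Zfp36 by -0.56. Array 1 of Hdc+/+, which remained, still had higher hepatocyte, intestinal and adipocyte sums than both Hdc-/- arrays. Genotype and the content of these tissues thus cannot be told apart there. The part of these tissues in the Fos, Dusp1 and Zfp36 differences was not tested. In whole tissue, fewer cells of a type and less RNA per cell cannot be told apart.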

How the data were processed

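Total RNA of 4 stomach samples, 2 labelled Hdc-/- and 2 labelled Hdc+/+, was extracted with Trizol and hybridised to Affymetrix arrays as biotin-labelled cDNA, per the labels' protocols. The log2 values were deposited by the authors after RMA normalization, per the submitters' processing notes. Those notes list oligo and Affymetrix Power Tools as well. Versions, summary level and annotation build are not known here.

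The platform annotation gave 1 gene symbol for 23521 of 41345 probe sets, several for 1814 and none for 16010. Of the first, 23328 matched the GRCm38.p6 gene table by Entrez identifier and 0 symbols needed updating. For the 1082 genes with several probe sets the highest mean over the arrays was kept, which left 22180 genes. Genotypes were compared with limma 3.58.1 in R 4.3.3 (lmFit and eBayes, no covariate, 2 residual and 3.62 prior degrees of freedom). The fit was tested on simulated data. No dim gene was left out, and the small number of arrays limits precision. Levels are not compared between genes.

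Alternatives left out dim genes, averaged or separately tested probe sets, renormalized or centred the arrays, changed the variance prior, added a replicate block and left out each array. The members and gene lists were chosen with earlier results of these data known. Named are all members and, per related list, in each direction, the 2 genes most different at an unadjusted p under 0.05. The closest 5 genes in profile, predicted genes passed over, are named too. Promoter windows of 250 bases came from RefSeq. In those windows the CArG box was searched by its consensus.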

Additional observations from a re-analysis of the deposited data

How the results depend on the processing

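The number of members called over all genes was 0 under every alternative run, and the members' median difference moved by less than its spread between replicates (SD 0.09), running from -0.31 to -0.17 with single arrays left out. The number at an unadjusted p under 0.05 stayed at 3 (Fos, Dusp1 and Zfp36) under all alternatives that kept the 4 arrays, and was between 1 and 2 with an array left out. Egr1 ran from -0.22 to 0.10 and Junb from -0.13 to 0.20 with single arrays left out, turning direction at 0.10 and 0.04 (Egr1) and at -0.13 and -0.03 (Junb). The other 8 members kept their direction under all alternatives. Over all genes the count of 1 became 0 with every probe set tested, 5 with a trended and robust prior and 7 with the replicate block, and lay between 0 and 161 with an array left out. The cause was not tested. A fit that left out an array had 1 residual degree of freedom and took the lone array to vary like the other genotype's. The replicate numbers share only a number. The replicate differences of the genotypes correlated at -0.12 across genes, and a block with crossed pairing, chosen after seeing the data, called 0 genes over all and left 3 members at the unadjusted threshold.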
